A study of Homo sapiens with 6 samples.

Results

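Transcripts of 9 genes of the transforming growth factor beta (TGF-beta) pathway were followed in T24 cells after silencing of RBM3. They were the ligands TGFB1 and TGFB2, the receptors TGFBR1 and TGFBR2, the signal transducers SMAD2, SMAD3 and SMAD4, the inhibitor SMAD7 and the target gene TGFBI. The members were chosen by symbol, with no measured value in the rule but with earlier results of these data known. All 9 were found among the 63677 identifiers of the count table and passed the filter on low counts, which left 15099 genes. T24 is a human bladder cancer cell line of grade 3. RBM3 encodes an RNA-binding protein, and the study asked how its loss alters the transcriptome of these cells. All 6 cultures received siRNA at 25 nM by lipofection in serum-free medium for 4.5 h, then full medium overnight. The 3 control libraries, replicates 1, 3 and 5, came from cells given a non-targeting siRNA, and the 3 siRBM3 libraries, replicates 3, 4 and 5, from cells given a mixture of siRNAs against RBM3. A single cell line and a single control siRNA were used, and the protocol names no added TGF-beta. No source used here says whether the replicates were separate transfections, so p-values measure only the spread between these samples.

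TGF-beta ligands are secreted in a latent form and, once released, bind the type II receptor TGFBR2, which recruits and phosphorylates the type I receptor TGFBR1. The active type I receptor phosphorylates SMAD2 and SMAD3, which join SMAD4, enter the nucleus and bind DNA together with other transcription factors. SMAD7 is induced by the pathway and shuts it off at the receptor, and in carcinoma cells the pathway is known both for growth arrest and for a mesenchymal, invasive state. Activity of the pathway lies in receptor and SMAD phosphorylation, which RNA levels do not measure.

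SMAD3 and SMAD4 recognise the letters CAGAC, or GTCTG on the other strand, and the stretches below show where these occur beside the start sites of the pathway's own genes. The motif was chosen with these results known. In RefSeq promoter windows of GRCh38.p14, which run from 250 bases before to 50 bases after a start site, it was found in 10 of the 24 windows listed for the 9 genes (41.7%) and in 45.3% of all 35116 windows. The motif was in the 1 window of TGFB2, in 4 of 8 of TGFBR1, 3 of 5 of SMAD3 and 2 of 3 of SMAD7. The windows of TGFB1, TGFBR2, SMAD2, SMAD4 and TGFBI, 1 or 2 per gene, did not hold it. Of each of the 4 genes, the match closest to the start site in the window listed first is printed 5′ to 3′ on the strand of the gene, with the motif in capitals.
TGFB2, 53 bases before the start, chr1:218345271-218345300, plus strand: ctttgttgaaggCAGACacgtggttcagag
TGFBR1, 213 bases before the start, chr9:99104888-99104917, plus strand: gccggggctgggGTCTGgcggcccagcccc
SMAD3, from base 7 of the transcript, chr15:67065596-67065625, plus strand: ttgcatgaaacaCAGACtgggagcgggcgg
SMAD7, 128 bases before the start, chr18:48951076-48951105, minus strand: ttcttattttgcCAGACgtctcatgcgggg
A match describes these letters only, and no binding was measured here.

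Library totals ranged from 23603992 to 45098612 counts. The deepest library, siRBM3 replicate 3, also had the largest share of mitochondrial counts, 9.4% against 1.63% to 4.15% in the others. Levels are given as counts per 1e+06 counts of the scaled library total (CPM), always in the order of control replicates 1, 3, 5 and of siRBM3 replicates 3, 4, 5. RBM3 had 225, 368 and 301 CPM in control cells, against 54.1, 90.1 and 58.4 CPM after silencing, and the groups did not overlap (exact permutation test, two-sided p = 0.1, the lowest value possible for 3 against 3 samples). Of the markers of T24 identity, the epithelial keratins KRT8 (1150 CPM in control cells) and KRT18 (778 CPM) and the mesenchymal VIM (2440 CPM) were abundant, whereas the adherens junction gene CDH1 had 0.33 CPM and the uroplakins UPK1A, UPK1B and UPK3A, markers of differentiated urothelium, had 0.255 CPM or less. Of 10 urothelial markers 4 reached 1 CPM (UPK2, GATA3, FOXA1 and PPARG), and the list summed to 198 to 202 CPM in control and 197 to 209 CPM in siRBM3 libraries. The epithelial list summed to 1900 to 2630 CPM in control and 1670 to 1940 CPM in siRBM3 libraries. The fibroblast markers summed to 2.26 to 4.41 CPM in control and 3.46 to 5.93 CPM in siRBM3 libraries and the immune markers to 2.22 to 3.02 and 2.25 to 2.63 CPM. The endothelial markers summed to 27.9 to 33.8 and 33.8 to 40.8 CPM, nearly all from CDH5, with KDR near 0.

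None of the 9 genes passed the thresholds of the study (1.5-fold, FDR 0.01) in edgeR's quasi-likelihood test, Benjamini-Hochberg adjusted over all 15099 genes, and of all genes 0% passed. The study had applied these thresholds with DESeq2 and reported genes changed in both directions, so the 0% belongs to the edgeR test used here. In edgeR the silenced gene RBM3 did not pass them either (log2 fold change -2.14, FDR 0.0822). At 1.5-fold alone, without a test, 7.92% of all genes and none of the 9 were past the limit. DESeq2 called none of the 9 either, against 1.27% of all genes with an adjusted p from DESeq2. These were fewer genes than the study reported, and the cause of that gap was not tested. With limma-voom 0 of all 15099 genes were called, and so none of the 9. SMAD3 was the only member with an unadjusted p under 0.05 in edgeR, that is 1 of 9 or 11.1%, where 13.1% of all genes had one and 6.56% had one with a higher level in siRBM3 cells. It was also the only member whose groups did not overlap, where 9.98% of all genes lay wholly higher in siRBM3 cells and 9.93% wholly lower. The log2 fold changes of the 9 genes lay between -0.07 and 0.29, with a median of 0.13 against -0.008 over all genes, and 6 of the 9 were above 0 where 48.5% of all genes were. For 8 of the 9 genes the 95% confidence interval of the fold change lay within a 1.5-fold change in either direction, and the exception was TGFBI.

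**Figure D1:**
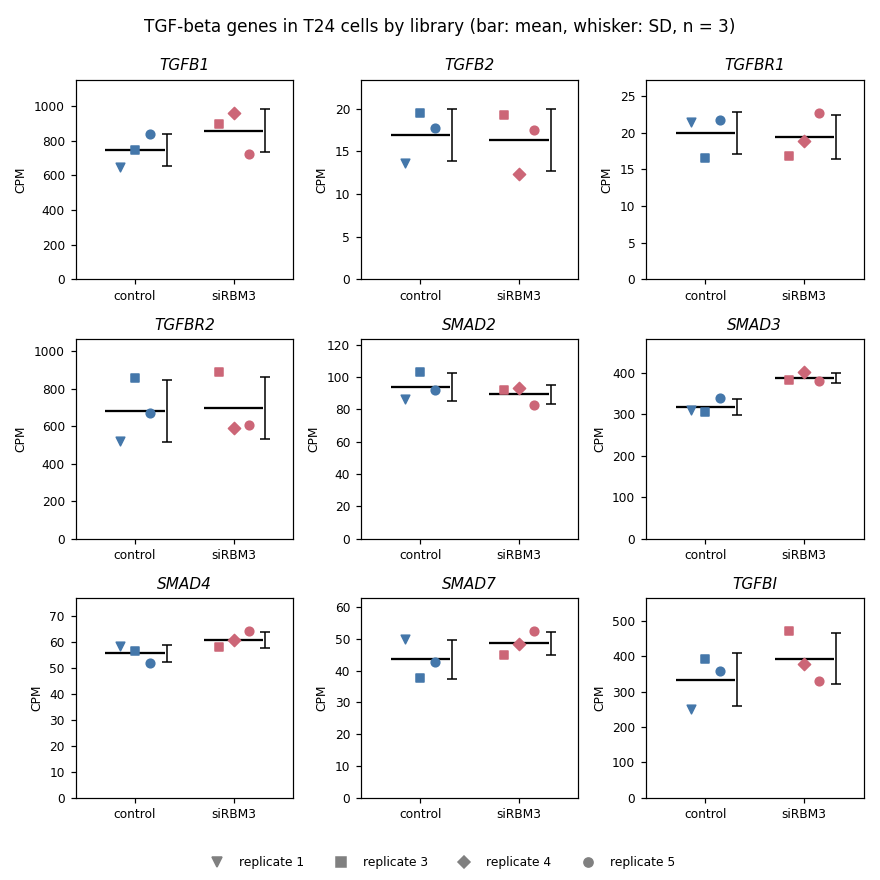
Level of each of the 9 genes in CPM in the 3 control (blue) and 3 siRBM3 (red) libraries, with the replicate number as the symbol, the group mean as a bar and the SD as a whisker. The groups overlap for every gene but SMAD3, whose siRBM3 libraries lie between 380 and 401 CPM and whose control libraries lie between 304 and 338 CPM.

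The ligands differed widely in level. TGFB1 (ENSG00000105329, chromosome 19 of GRCh37, 41807492 to 41859827, minus strand), the most widely expressed TGF-beta isoform, stood at 650, 747 and 839 CPM in control cells and at 893, 960 and 720 CPM in siRBM3 cells. Other annotated genes overlap 6.59% of its exon bases. The siRBM3 libraries held both of the highest values, but siRBM3 replicate 5 lay within the control range. Control cells averaged 745 ± 94.1 CPM and siRBM3 cells 858 ± 124 CPM (SD, n = 3 each), a log2 fold change of 0.20 (standard error, SE, 0.14, edgeR FDR 0.582). In bulk RNA of this kind, a change in the share of cells that express a gene and a change in its RNA per cell cannot be told apart. TGFB2 (ENSG00000092969, chromosome 1, 218518678 to 218617961, plus strand), an isoform that depends more than TGFB1 on a co-receptor, had 13.6, 19.5 and 17.7 CPM in control cells. After silencing, TGFB2 had 19.2, 12.3 and 17.5 CPM. The lowest and the second highest value were both siRBM3 libraries, and the log2 fold change of -0.05 (SE 0.20, edgeR FDR 0.939) was smaller than the spread within either group. Other annotated genes overlap 34.2% of the exon bases of TGFB2, which makes its level uncertain. Of its exon bases 22.7% are shared with TGFB2-OT1 on the same strand, which was not analysed here, and the antisense TGFB2-AS1 had 1 to 3 counts per library.

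Among the receptors, TGFBR2 was abundant and TGFBR1 was not. TGFBR2 (ENSG00000163513, chromosome 3, 30648093 to 30735634, plus strand), the ligand-binding receptor kinase, stood at 522, 856 and 668 CPM in control cells and at 889, 593 and 608 CPM in siRBM3 cells. TGFBR1 (ENSG00000106799, chromosome 9, 101866320 to 101916474, plus strand), its signalling partner, had 21.4, 16.6 and 21.7 CPM in control cells. After silencing, TGFBR1 had 16.8, 18.8 and 22.7 CPM. In either group replicate 3 had the highest TGFBR2 and the lowest TGFBR1 level. The log2 fold changes were 0.03 for TGFBR2 (SE 0.21, 95% interval -0.46 to 0.53) and -0.04 for TGFBR1 (SE 0.16, 95% interval -0.41 to 0.34). Their FDR values in edgeR were 0.963 and 0.944. For TGFBR2 the highest library had 1.71 times the level of the lowest, so the libraries varied far more than the group means differed.

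SMAD3 showed the clearest difference of the 9 genes. SMAD3 (ENSG00000166949, chromosome 15, 67356101 to 67487511, plus strand), a DNA-binding transducer of the TGF-beta signal whose CAGAC stretch is given above, had 309, 304 and 338 CPM in control cells. After silencing, SMAD3 had 381, 401 and 380 CPM. All 3 siRBM3 libraries were therefore above all 3 control libraries, and the means of 317 ± 18.4 and 387 ± 12.2 CPM (SD, n = 3 each) were apart by more than either SD. The log2 fold change was 0.29 (SE 0.09, 95% interval 0.09 to 0.49), or a 1.22-fold higher level. Leaving out any 1 library gave 0.26 to 0.34. The difference did not pass after adjustment over all genes, with an FDR of 0.236 by edgeR and 0.138 by DESeq2, and it also lay under the fold threshold.

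The other SMADs gave smaller differences. SMAD2 (ENSG00000175387, chromosome 18, 45335328 to 45457517, minus strand), the second receptor-activated SMAD, stood at 86.2, 103 and 92.2 CPM in control cells and at 92.0, 93.1 and 82.5 CPM in siRBM3 cells. The highest SMAD2 value was in a control and the lowest in an siRBM3 library, and the groups overlapped. The log2 fold change of SMAD2 was -0.07 (95% interval -0.31 to 0.17, FDR 0.819 in edgeR). SMAD4 (ENSG00000141646, chromosome 18, 48554898 to 48611415, plus strand), the partner shared with bone morphogenetic protein (BMP) signalling, had 58.4, 56.4 and 52.0 CPM in control and 57.8, 60.6 and 64.0 CPM in siRBM3 libraries. The groups overlapped only through siRBM3 replicate 3, which lay below control replicate 1, and the log2 fold change was 0.13 (95% interval -0.09 to 0.35, FDR 0.623 in edgeR). SMAD7 (ENSG00000101665, chromosome 18, 46446223 to 46477335, minus strand), the inhibitory SMAD and a direct target of the pathway, had 50.1, 37.6 and 42.9 CPM in control libraries and 45.0, 48.4 and 52.4 CPM in siRBM3 libraries. Its log2 fold change of 0.16 (95% interval -0.14 to 0.45, FDR 0.651 in edgeR) came with overlapping groups.

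TGFBI (ENSG00000120708, chromosome 5, 135364677 to 135399507, plus strand) encodes a secreted matrix protein that was named for its induction by TGF-beta. Its level was 250, 392 and 359 CPM in control cells and 470, 379 and 330 CPM in siRBM3 cells. Control replicate 1 was the lowest and siRBM3 replicate 3 the highest library, and the remaining 4 libraries were mixed. The log2 fold change of 0.23 (SE 0.19, 95% interval -0.20 to 0.67, FDR 0.645 in edgeR) varied from 0.06 to 0.37 when any 1 library was left out. It was 0.06 without control replicate 1 and 0.09 without siRBM3 replicate 3. The highest library had 1.87 times the TGFBI level of the lowest, the widest range among the 9 genes.

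**Figure D2:**
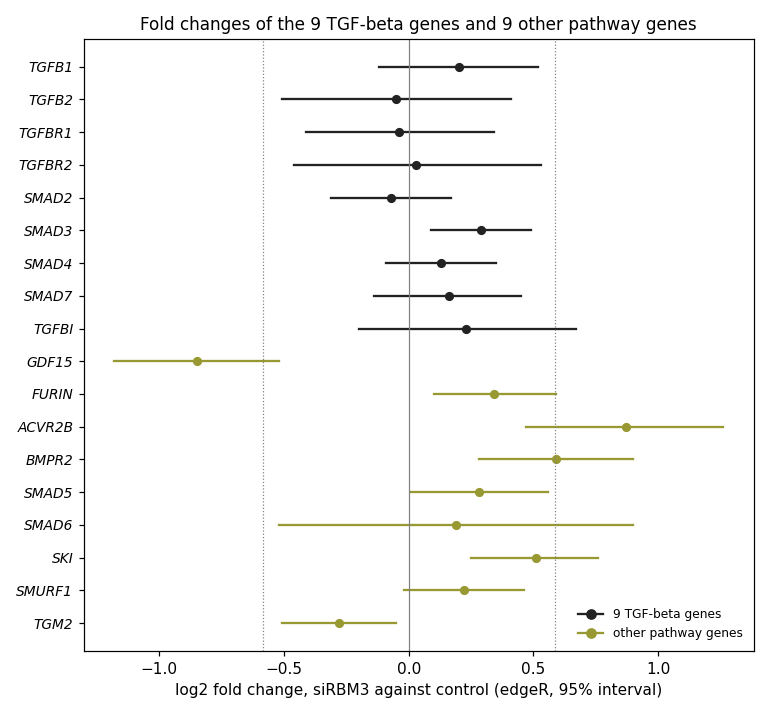
Log2 fold change of siRBM3 against control cells (horizontal axis, point) with its 95% interval (line) for the 9 genes (black) and 9 other pathway genes (olive), with dotted lines at a 1.5-fold change in either direction. The intervals of 8 of the 9 genes include 0, and that of SMAD3 runs from 0.09 to 0.49.

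The members also deviated within the groups. TGFBR2 deviated by 0.34 and 0.40 (log2 CPM minus the gene's mean over the 6 libraries) in control replicate 3 and siRBM3 replicate 3, in which TGFBR1 deviated by -0.23 and -0.22. TGFBI followed TGFBR2 at both ends, with -0.51 in control replicate 1 and 0.39 in siRBM3 replicate 3. The mitochondrial share was also the highest of each group in replicate 3 (2.86% in control, 9.4% in siRBM3) and the lowest of all libraries in control replicate 1 (1.63%), and its part in these deviations was not tested. SMAD4 and SMAD2 were the steadiest members, with the highest library at 1.23 and 1.25 times the lowest.

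**Figure D3:**
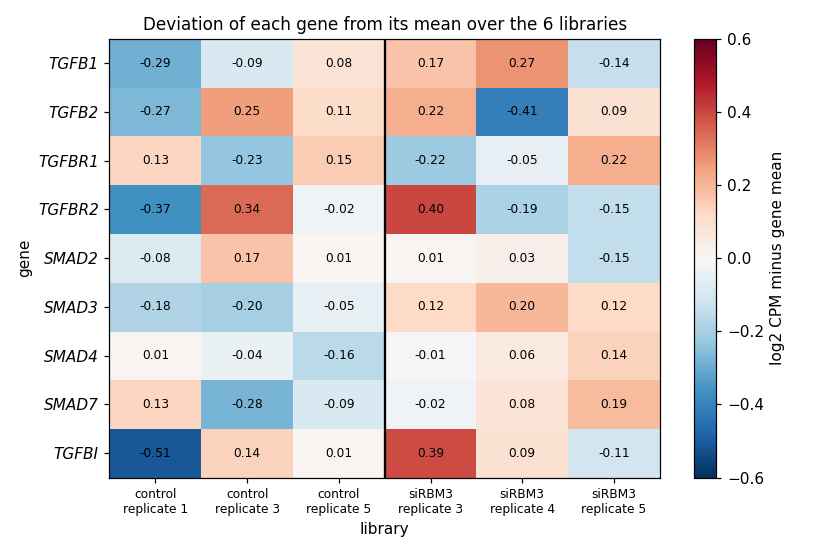
Deviation of each gene (rows) in each library (columns) from its own mean over the 6 libraries in log2 CPM, with control libraries left and siRBM3 libraries right of the line. SMAD3 is the one row with 1 sign in each group, and TGFBR2 and TGFBI are highest in siRBM3 replicate 3 and lowest in control replicate 1.

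Levels were compared between genes per kilobase of the canonical transcript. In control cells TGFB1 came first with 268 ± 33.8 CPM per kilobase (SD, n = 3), followed by TGFBR2 with 151 ± 37.0 and TGFBI with 123 ± 27.3. SMAD3 had 49.1 ± 2.84, SMAD7 13.0 ± 1.87 and SMAD4 6.34 ± 0.374 CPM per kilobase. TGFBR1 (3.07 ± 0.444), TGFB2 (2.89 ± 0.515) and SMAD2 (2.71 ± 0.245) were the lowest and did not differ beyond their spread, and neither did TGFBR2 and TGFBI. The order was the same in siRBM3 cells. It depended on the length taken for SMAD2, whose canonical transcript is 34.6 kb long while the median of its coding transcripts is 1.38 kb. With median coding lengths SMAD2 moved from rank 9 to rank 5, and TGFBR2, TGFBI and SMAD3 changed places.

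Ratios within a library do not depend on the scaling between libraries, and 4 of them were compared. The log2 ratio of SMAD3 to SMAD2 per kilobase was 4.26, 3.99 and 4.30 in control and 4.47, 4.53 and 4.62 in siRBM3 libraries. Every siRBM3 library was above every control library, and the group means differed by 0.36. The two-sided exact permutation test gave p = 0.1, the lowest possible value, and an adjusted p of 0.4 over 4 ratios. The height of the ratio rests on the 34.6 kb length taken for SMAD2, whereas the difference between groups does not depend on length. With median coding lengths, SMAD3 had 163 and SMAD2 68 CPM per kilobase in control cells. For TGFB2 to TGFB1 the means differed by -0.26, for TGFBR2 to TGFBR1 by 0.07 and for SMAD7 to SMAD4 by 0.04, and in each the groups overlapped (exact permutation tests, adjusted p between 0.933 and 1). The ratio of TGFBR2 to TGFBR1 was 6.21 and 6.24 in replicate 3 of control and siRBM3 cells and at most 5.50 in the other libraries.

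The rest of the pathway was read from a list of 78 genes in the roles of ligand, receptor, SMAD, regulator and target, of which 72 could be tested. None passed the thresholds in edgeR with Benjamini-Hochberg adjustment. An unadjusted p under 0.05 was found for 7 genes higher and 4 lower in siRBM3 cells, or 15.3% of the 72, against 13.1% of all genes. The groups did not overlap in 19.4% of the 72, against 19.9% of all genes. The list as a whole thus stood near the background, with a median log2 fold change of 0.07. DESeq2 called 2 of its genes, GDF15 and ACVR2B, against 160 of all 12589 genes with an adjusted p from DESeq2 (1.27%).

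**Figure D4:**
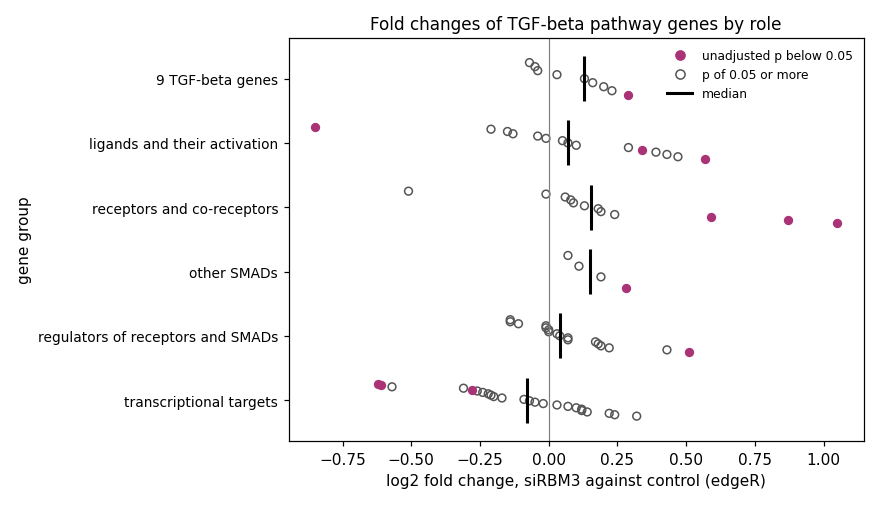
Log2 fold change (horizontal axis) of each tested gene, grouped by role (vertical axis), with filled points for an unadjusted p under 0.05 in edgeR and a bar at the median of each group. The medians lie between -0.08 for the targets and 0.16 for the receptors, and 1 of the 9 genes in the top row, SMAD3, is filled.

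Of 12 receptors and co-receptors all were tested, and 10 were higher and 2 lower in siRBM3 cells, with a median log2 fold change of 0.16. Of all genes 48.5% were higher, which is the background for this and each later role. The groups did not overlap in 6 of the 12 (50%), against 19.9% of all genes and 5.88% to 25% in the other roles. Whether the roles differ was not tested. ACVR2B, a type II receptor for activins and related ligands, had 6.76, 6.62 and 7.12 CPM in control and 15.0, 10.4 and 11.8 CPM in siRBM3 cells. All siRBM3 libraries were higher, and the log2 fold change was 0.87 (SE 0.17, edgeR FDR 0.12). DESeq2 called it with an adjusted p of 0.00114, but not after leaving out control replicate 3, control replicate 5, siRBM3 replicate 3 or siRBM3 replicate 5 (adjusted p between 0.0156 and 0.0526). BMPR2, the type II receptor of the BMP branch, had 80.7, 97.4 and 85.3 CPM in control and 114 to 156 CPM in siRBM3 libraries, again without overlap. BMPR2 had a log2 fold change of 0.59 (SE 0.14, FDR 0.155 by edgeR and 0.0174 by DESeq2). ACVR1C, a type I receptor singled out after its values were seen, was at 0.80 ± 0.165 and 1.66 ± 0.0755 CPM (SD, n = 3 each), with an FDR of 0.17 in edgeR.

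Of 18 genes for ligands and their activation 15 were tested, with 9 higher and 6 lower. GDF15, a stress-induced cytokine of the TGF-beta superfamily that signals through a receptor of its own, had 214, 290 and 254 CPM in control and 160, 139 and 120 CPM in siRBM3 cells. Every siRBM3 library was lower, with a log2 fold change of -0.85 (SE 0.14, 95% interval -1.18 to -0.52). The FDR was 0.0921 in edgeR, and the adjusted p in DESeq2 was 0.000147, which became 0.0103 without control replicate 5. FURIN, a protease that cleaves the TGF-beta precursors, had 178, 198 and 193 CPM in control and 266, 242 and 213 CPM in siRBM3 libraries, with an FDR of 0.242 in edgeR. ITGB6, which encodes a subunit of a TGF-beta-activating integrin and was singled out after its values were seen, was at 1.51 ± 0.314 and 2.23 ± 0.315 CPM (SD, n = 3 each), with an FDR of 0.379 in edgeR. INHBA, the subunit of activin A, was listed at 0 counts in all 6 libraries, while INHBA-AS1, the antisense gene at its locus, had 32 to 76 counts. Whether INHBA was unexpressed or its reads were not counted cannot be told apart from this table.

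**Figure D5:**
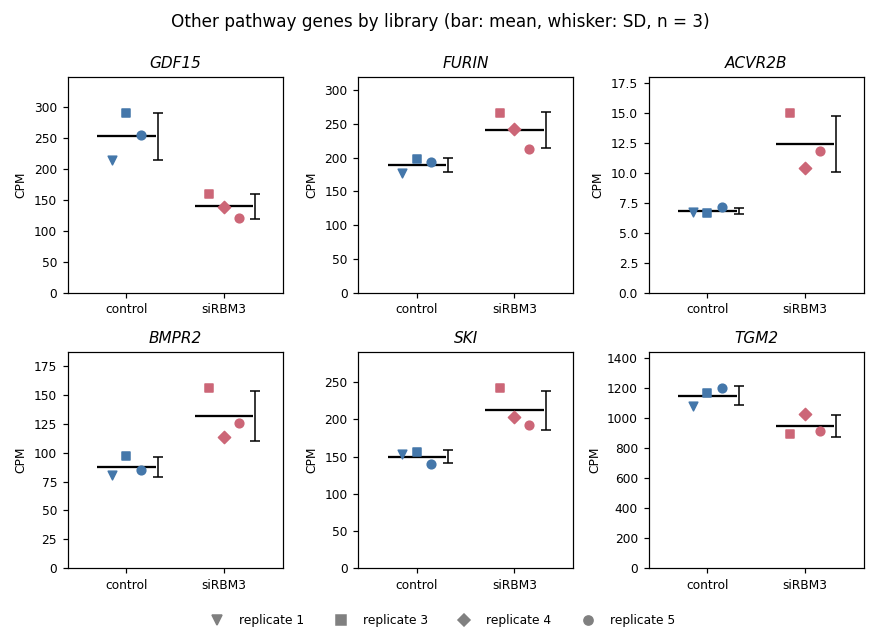
Level in CPM of 6 other pathway genes in the 3 control (blue) and 3 siRBM3 (red) libraries, with the replicate number as the symbol, the mean as a bar and the SD as a whisker. The groups are separate for all 6 genes, with GDF15 and TGM2 lower and FURIN, ACVR2B, BMPR2 and SKI higher in siRBM3 cells, though none was called by edgeR. The 6 were taken from the named pathway genes, which were picked by smallest p in each role or by a DESeq2 call. SMAD5, not drawn, was also separate, whereas SMAD6 and SMURF1, not drawn, overlapped. Of all genes, 19.9% had groups that did not overlap.

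The other 4 SMADs, which serve the BMP branch, had log2 fold changes between 0.07 and 0.28. SMAD5, a transducer of that branch, had the highest, with 67.4 ± 9.42 CPM in control and 82.0 ± 3.40 CPM in siRBM3 cells (SD, n = 3 each, FDR 0.365 in edgeR), and SMAD6, its inhibitor, was at 7.71 ± 3.53 and 8.85 ± 1.51 CPM. Of 17 tested regulators, 11 were higher and 6 lower. SKI, a co-repressor that binds SMAD complexes, had 153, 156 and 140 CPM in control and 242, 203 and 192 CPM in siRBM3 libraries, with every siRBM3 library higher. SKI had a log2 fold change of 0.51 (SE 0.11, FDR 0.144 by edgeR and 0.015 by DESeq2). SMURF1, a ubiquitin ligase for SMADs and receptors, was at 86.4 ± 7.82 and 100 ± 7.59 CPM with overlapping groups (SD, n = 3 each, FDR 0.43 in edgeR).

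Of 24 tested target genes, 9 were higher and 15 lower, with a median log2 fold change of -0.08. TGM2, a transglutaminase that cross-links matrix proteins, had 1080, 1170 and 1200 CPM in control and 897, 1030 and 917 CPM in siRBM3 cells. Every siRBM3 library was lower than every control library, with means of 1150 ± 65.2 and 947 ± 71.0 CPM (SD, n = 3 each). TGM2 had a log2 fold change of -0.28 (SE 0.10, edgeR FDR 0.299). IL11, a cytokine gene singled out after its values were seen, was at 6.58 ± 1.23 and 4.30 ± 1.02 CPM (SD, n = 3 each, FDR 0.329 in edgeR).

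The genes whose pattern over the 6 libraries came closest to that of a member were sought among 13759 named genes outside the lists. The measure was the root mean square difference of mean-centred log2 CPM. For SMAD3 these were SSBP3 (0.0227) and EIF5B (0.033), for TGFBR2 ANKRD11 (0.0227) and SLC38A1 (0.0453), and for TGFBI NR2F1-AS1 (0.0364) and UBE2E1 (0.0474). The members' own SD over the libraries was 0.17 for SMAD3, 0.307 for TGFBR2 and 0.302 for TGFBI on the same scale. Each of the other 6 members also had 2 genes within 0.0697, the value of PVT1 for TGFB2. The search took the nearest of 13759 genes over only 6 libraries, so a near match alone says little. Shared regulation was not tested.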

How the data were processed

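Polyadenylated RNA of 6 T24 samples was made into stranded libraries and sequenced as single-end reads of 75 nt. Per the labels and the methods of the study, the authors trimmed reads with BBDuk, aligned them to hg19/GRCh37 with STAR 2.5.2a, marked duplicates with Picard and counted reads with featureCounts. The deposited values are raw counts per Ensembl gene, and all 6 columns were mapped by title. Not given in the sources used here: annotation release, strand setting and handling of marked duplicates. Symbols, positions and lengths came from GENCODE v44 on GRCh37, which matched 55665 of 63677 identifiers.

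Genes were kept by filterByExpr (minimum count 10, minimum total 15), scaled by TMM and tested with the quasi-likelihood method of edgeR 4.0.16 (R 4.3.3), with Benjamini-Hochberg adjustment over all 15099 genes. The limits for a call were those of the study, 1.5-fold and FDR 0.01. Alternatives were DESeq2 1.42.0, the tool of the study, limma-voom (limma 3.58.1), other scalings and filters, an FDR of 0.1, leaving out each library, and the replicate number as a block. The scripts were tested on simulated counts drawn independently for each gene and library. Such counts cannot show how the tests behave where libraries share a deviation. CPM values use TMM-scaled totals. Named genes were the 9 members, RBM3, in each role of the wider list the 2 genes with the smallest p, and those called by DESeq2. Of these genes, 1 is not reported here. Members, lists and rule were chosen with earlier results of these data known.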

Additional observations from a re-analysis of the deposited data

How the results depend on the processing

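With 3 libraries per group, intervals and p-values rest on few samples, and exact tests could not go below 0.1. None of the 9 genes was called under any of the alternatives. With limma-voom, RLE factors, library size only or a mean of at least 20 counts, 0 of all genes were called. The main comparison also called 0, and edgeR with 1 library left out called 0 to 1 of all genes. These fits therefore say nothing about the 9 in particular. Of 117 values, taken to 2 decimals, 10 had the other sign. These 10 were of TGFB2, TGFBR1 or TGFBR2. SMAD2 without control replicate 3 came out at 0 to 2 decimals. It was counted as higher there. With library size only the log2 fold change of TGFBR2 was -0.02, and with the replicate number as a block those of TGFBR1 and TGFBR2 were 0.04 and -0.04. Leaving out 1 library gave -0.19 to 0.12 for TGFB2, -0.16 to 0.06 for TGFBR1, -0.18 to 0.23 for TGFBR2 and -0.06 to 0.61 for SMAD6. Of the 9 genes, 5 to 8 were higher in siRBM3 cells (8 without control replicate 3), with 6 in the main comparison.

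Over all genes, DESeq2 called 160, edgeR without a filter 279, edgeR with the replicate block 336, and edgeR at an FDR of 0.1 83, against 0 in the main comparison and 0 to 1 with 1 library left out (1 without control replicate 1). Of the wider list these settings called 2, 4, 5 and 1 genes, DESeq2 with 1 library left out, an alternative chosen after the data were seen, 0 to 3 (3 without control replicate 1, 0 without control replicate 5), and edgeR with 1 library left out 0. The genes called with the block included GDF15, ACVR2B, BMPR2 and ANGPTL4. The cause of these differences was not tested. Only the numbers 3 and 5 occur in both groups, so the group effects with the block rest on these numbers alone. The deviations of same-numbered libraries correlated across genes at 0.65 for number 3, the highest value between libraries, and at 0.09 for number 5. The main comparison did not pair libraries, and a deviation shared by the libraries of number 3 was not tested. The RBM3 log2 fold change was -2.14 in the main comparison, not called, and called at -2.14 with DESeq2, -2.13 without a filter and -2.57 with the block. It was -2.40 to -1.96 with 1 library left out.

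The difference in the log2 ratio of TGFBR2 to TGFBR1 was -0.08 within the numbers 3 and 5 (replicate block) and ranged from -0.22 to 0.38 with 1 library left out. For TGFB2 to TGFB1 that range was -0.45 to 0.02, for SMAD7 to SMAD4 -0.07 to 0.11 and for SMAD3 to SMAD2 0.26 to 0.42.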
